A study of Mus musculus with 6 samples.

Results

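The genes described here are 39 members of the ATF4 stress program and of the amino acid and one-carbon metabolism around it, out of 54752 genes listed in the count table. They were taken by name, with earlier results of these data known. The list holds 11 transcription factors and regulators, 6 enzymes of asparagine, serine and glycine synthesis, 4 folate enzymes and 9 amino acid transporters. It also holds 5 enzymes of proline, alanine, aspartate and phosphoenolpyruvate metabolism, 2 transsulfuration enzymes, and the pair Stc2 and Vldlr. RNA was sequenced from NIH/3T3 cells, an established line of mouse embryonic fibroblasts, in complete medium for 72 h. The vehicle group received PBS, the DMSO group TGFB1 at 1 ng/ml with DMSO, and the BI6727 group TGFB1 at 1 ng/ml with 5 µM BI6727, an inhibitor of the mitotic kinase PLK1, with 2 libraries in each group. The DMSO group thus differed from vehicle by both TGFB1 and DMSO, whose parts cannot be told apart. The study asked how PLK1 inhibition changes the expression driven by TGFB1, a cytokine that turns fibroblasts into matrix-producing myofibroblasts.

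ATF4 is a transcription factor whose translation rises when eIF2α is phosphorylated, for example when amino acids run short or unfolded proteins load the endoplasmic reticulum, or when mTORC1 is active. It pairs with C/EBP family proteins on composite elements near its targets, and drives genes that import amino acids, make serine, glycine and asparagine, feed one-carbon units into folate, and feed back on the pathway. In fibroblasts, glycine, which is made from serine, is needed in bulk for collagen. ATF4 RNA is a poor guide to ATF4 protein, because control is largely translational.

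The count libraries held 18362378 to 24452153 counts on genes. The test took genes that reached 10 CPM (counts adjusted for the depth of each library) in more than 3 of the libraries, and kept 9518 genes and 33 of the 39 members. Libraries were scaled by edgeR's TMM factors, and values below are CPM after that scaling. Calls needed an adjusted p (Benjamini-Hochberg) below 0.01 and more than a 2-fold change in edgeR's quasi-likelihood test. DMSO replicate 2 stood apart from its partner. The SD of the log2 difference between replicates over tested genes was 0.377 in the DMSO group, against 0.163 in vehicle and 0.147 with BI6727, and the deviation of DMSO replicate 2 from the other libraries was correlated with gene length at a Spearman rho of -0.58 across genes. All 7 fibroblast markers passed the filter, with a summed level of 7738 to 10060 CPM per library, and the ranges were 7962 to 8260 in vehicle, 7738 to 10060 with DMSO and 8163 to 8209 with BI6727. None of the 11 epithelial, leukocyte and endothelial markers passed it. The 3 endothelial markers summed to 0.208 and 0.728 CPM in vehicle, 3.57 and 2.89 with DMSO, and 1.89 and 2.32 with BI6727. The 4 epithelial markers summed to 0.364 and 0.501 CPM in vehicle, 1.98 and 1.83 with DMSO, and 1.00 and 0.455 with BI6727. The 4 leukocyte markers summed to 3.74 and 4.69, 2.945 and 2.94, and 3.06 and 3.19 in the same order. Under the looser filterByExpr, Krt14 was called higher with DMSO against vehicle (log2 fold change 3.36, adjusted p = 0.00457, edgeR), from 3 and 4 counts to 36 and 38. Epcam was at most 0.05 CPM, and Krt5, Adgre1, Cd3e and Kdr were at 0 in all 6 libraries. The part of these shifts in the values of the members was not tested.

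The proximal promoters of the members are shown first. Among the 33 tested members, the 4 with the largest log2 fold change in the DMSO group hold the same element there. Of these, Atf3 and Chac1 were below 10 CPM in both vehicle libraries and passed the filter through the TGFB1 groups. Their place among the tested members thus depended on the filter, and a link between the element and the change was not tested. RefSeq promoter windows (GRCm38.p6, 250 bases before to 50 after the start) were matched by symbol for 33 of the 39 members. The core of the C/EBP-ATF composite element, TGATGNAA, was searched on both strands. Some genes have several windows, and these 33 members had 39 in all. It was in 11 of the 39, each of a different member (28.2%, against 3.97% of the 32851 windows of all genes). The members were taken by name as genes of the ATF4 program and the metabolism around it, so this is no independent test of the element. The palindromic cAMP response element TGACGTCA was in 0 of the 39 (0% against 1.79% of all windows), and the E-box CACGTG was in 3 of the 39 (7.69% against 7.15%). Of the 4 members with that element that were called higher in the DMSO group with this filter or with edgeR's looser filterByExpr, 3 hold it before the start, and their 250 bases up to the start are given here 5′ to 3′, with the element in capitals.
Atf3 (chr1:191183334-191183583, minus strand): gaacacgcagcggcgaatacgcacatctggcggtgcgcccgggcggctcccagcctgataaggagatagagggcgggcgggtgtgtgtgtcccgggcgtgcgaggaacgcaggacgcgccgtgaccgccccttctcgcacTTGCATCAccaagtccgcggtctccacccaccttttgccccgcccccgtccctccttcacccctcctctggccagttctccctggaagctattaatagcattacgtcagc
Nupr1 (chr7:126625471-126625720, minus strand): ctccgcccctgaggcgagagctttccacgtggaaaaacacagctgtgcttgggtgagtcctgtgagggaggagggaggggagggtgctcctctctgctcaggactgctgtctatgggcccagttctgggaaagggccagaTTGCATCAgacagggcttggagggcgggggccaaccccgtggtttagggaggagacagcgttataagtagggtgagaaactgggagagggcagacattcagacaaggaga
Chac1 (chr2:119350992-119351241, plus strand): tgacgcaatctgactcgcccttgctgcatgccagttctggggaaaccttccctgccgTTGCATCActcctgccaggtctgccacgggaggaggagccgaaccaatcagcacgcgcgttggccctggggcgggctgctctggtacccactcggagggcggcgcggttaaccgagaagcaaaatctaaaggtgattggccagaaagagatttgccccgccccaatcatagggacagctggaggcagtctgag

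The element lies on the minus strand of each window, 110 bases before the start in Atf3 and Nupr1 and 193 bases before it in Chac1. In Trib3 it begins 15 bases into the transcript, and the 30 bases around it are given below. Asns and Slc7a11 are shown beside them as members with the element that did not pass the threshold, a choice made after their values were seen. In Asns the element starts 23 bases before the start, and Slc7a11 holds it on both strands, 66 and 47 bases before the start.
Trib3 (chr2:152344033-152344062, minus strand): gcagattagctcaggtTTACATCAgccggg
Asns (chr6:7693210-7693309, minus strand): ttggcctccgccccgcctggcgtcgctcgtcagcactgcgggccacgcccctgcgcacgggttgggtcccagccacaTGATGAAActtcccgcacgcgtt
Slc7a11 (chr3:50443614-50443713, minus strand): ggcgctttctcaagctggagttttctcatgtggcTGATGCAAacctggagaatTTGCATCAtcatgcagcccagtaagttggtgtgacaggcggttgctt

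The other members with the element were Slc1a4, Pycr1, Got1, Pck2 and Vldlr. The windows of Stc2, Cebpb and Slc38a2, which also passed the threshold, held no TGATGNAA. A match of 8 letters is a description of these windows and not evidence of binding. All 11 members with the element passed filterByExpr, and in that fit 7 of them were above 0 in the DMSO group against vehicle, with a median log2 fold change of 0.34, and Pck2, Slc7a11, Pycr1 and Vldlr were below 0. Of the 21 members in that fit whose windows lack it, 15 were above 0, with a median of 0.24. Over all genes of that fit with a window, 6.62% of the 272 with the element and 2.73% of the 9644 without it were called higher, and their medians were -0.08 and -0.03. Called lower were 11 of the 272 and 340 of the 9644. The 272 include the 11 members with the element, 4 of them called higher, so these shares are not independent of the members. With the 10 CPM filter 8 of the 11 were tested. Atf3 and Chac1 were below 10 CPM in both vehicle libraries and passed that filter through the TGFB1 groups, so no median is given over the 8.

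**Figure D1:**
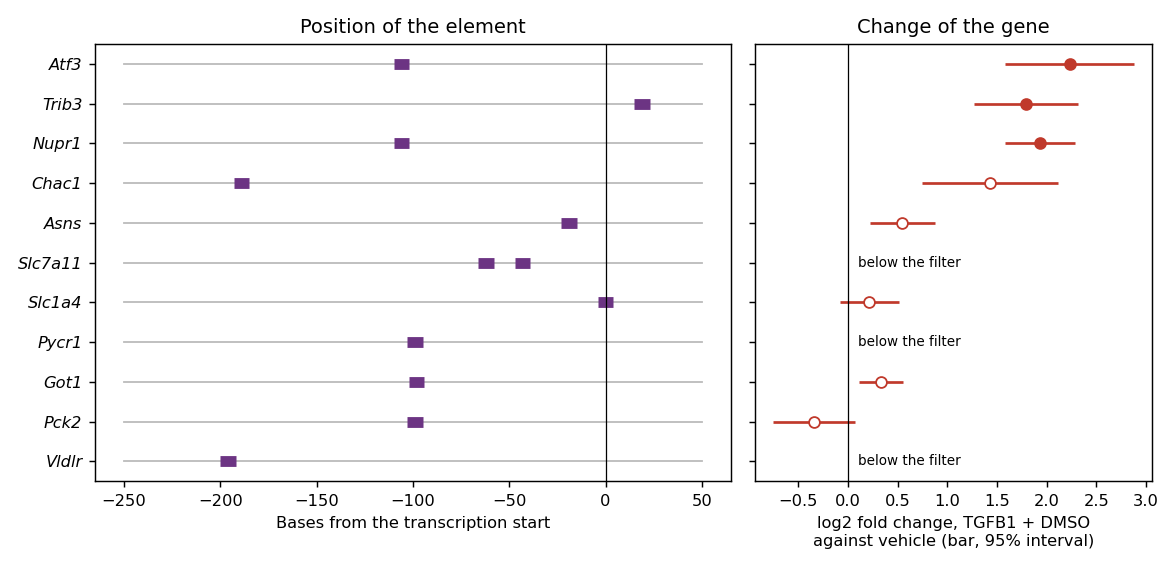
Left, position of the C/EBP-ATF element in bases from the transcription start (grey line, the 300-base window searched) in the 11 members that hold it; right, log2 fold change of the DMSO group against vehicle with its 95% confidence interval, filled where past the threshold. Atf3, Trib3 and Nupr1 lie between 1.79 and 2.23, Pck2 is the one tested member below 0, and Slc7a11, Pycr1 and Vldlr were below the filter.

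The levels of the members spanned more than the changes among them. Scaled to exon length, Atf4 stood highest in vehicle at 132 ± 3.87 normalized CPM per kilobase (mean ± SD, n = 2), level with Cebpb at 130 ± 9.64, since their libraries overlapped. Psat1 followed at 100.1 ± 4.23, then Shmt2 at 76.8 ± 1.83, Atf5 at 73.5 ± 9.78 and Slc38a2 at 69.0 ± 12.4, and the libraries of the last 3 overlapped. In the DMSO group Atf4 stayed first at 190.0 ± 41.3, and by mean level Cebpb lay behind Shmt2, Eif4ebp1, Atf5, Psat1, Asns and Slc3a2 to 59.8 ± 3.08. At the other end, Slc7a3, Slc7a11, Pycr1, Cth, Cbs and Vldlr did not pass the filter.

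**Figure D2:**
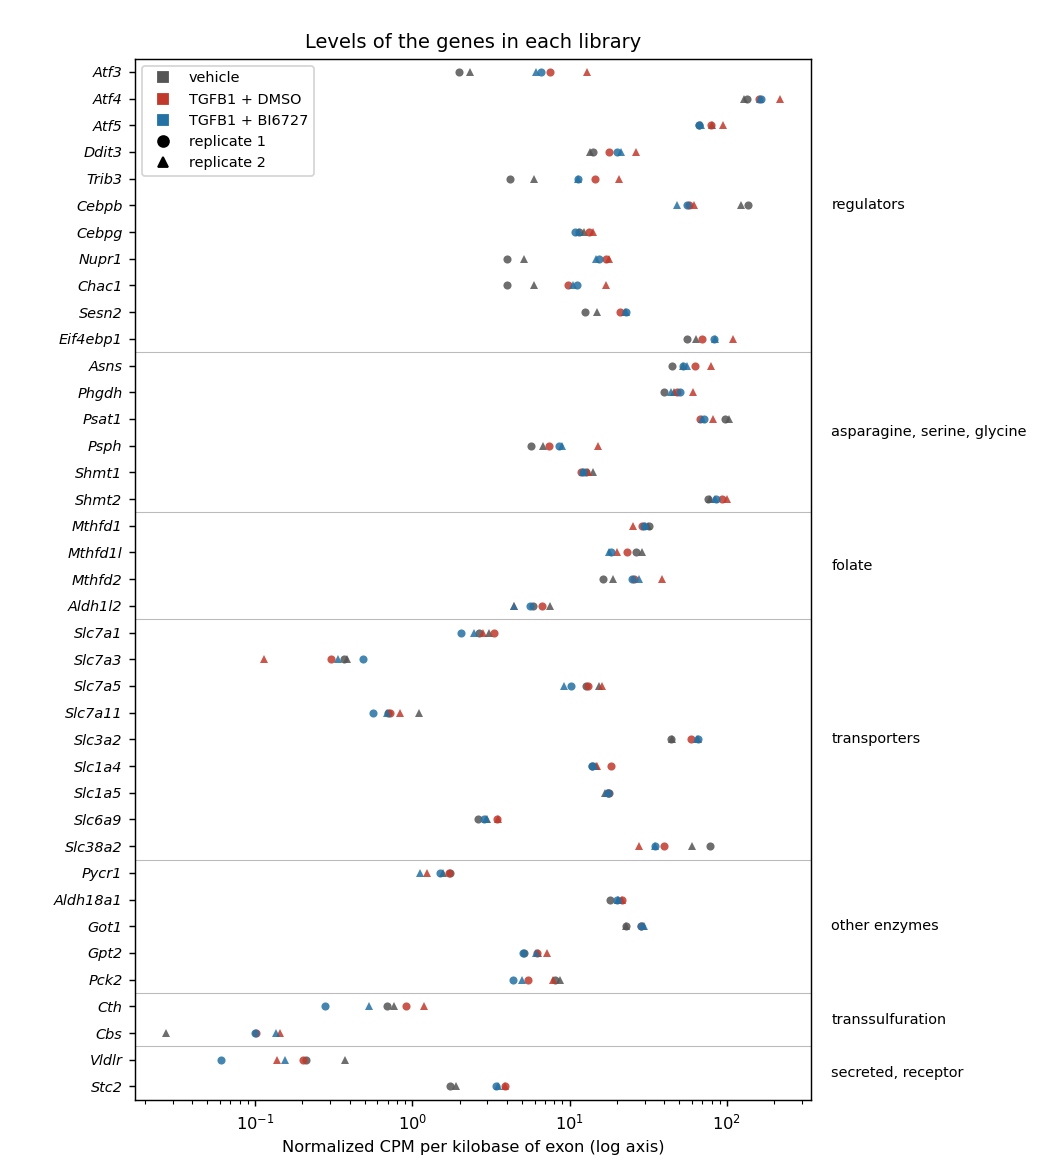
Normalized CPM per kilobase of exon (log axis) of the 39 members in each of the 6 libraries, grouped by role, with colour for the group and symbol for the replicate; the 1 library in which Cbs is at 0 is not drawn. Atf4 and Cebpb lead in vehicle, Cebpb and Slc38a2 lie lower in both TGFB1 groups, and the 2 transsulfuration genes and Vldlr sit near the bottom.

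The first comparison was of the DMSO group with vehicle, which asks what TGFB1 with DMSO changed. The stress factors Atf3 and Nupr1, the pseudokinase Trib3 and the secreted glycoprotein Stc2 rose, and the transcription factor Cebpb and the neutral amino acid transporter Slc38a2 fell. In bulk RNA, fewer cells expressing a gene and less RNA per cell cannot be told apart. In all, 4 of the 33 tested members were called higher and 2 lower, while 5.10% of all tested genes were called (2.56% higher and 2.53% lower). At an adjusted p below 0.05 with any fold, 13 members were higher and 4 lower, against 11.0% and 12.0% of all genes. The median log2 fold change of the tested members was 0.32, with 25 of 33 above 0, and that of all tested genes was -0.0045. Members near the 10 CPM filter in vehicle passed it through the TGFB1 groups in which they were higher, so these counts describe the tested members only. Without DMSO replicate 2 the median was 0.24, with 24 of 33 above 0.

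Atf3, a stress-induced repressor and activator of the ATF/CREB family, was at 4.26 and 5.05 CPM in vehicle, 16.1 and 27.7 with DMSO, and 14.3 and 13.3 with BI6727. The 3 groups did not overlap, vehicle was lowest, and the DMSO replicates differed most. Its log2 fold change with DMSO against vehicle was 2.23 (SE 0.28, adjusted p = 0.00175, edgeR). Without DMSO replicate 2 it was 1.79. The gene lies on the minus strand of chromosome 1, from 191170296 to 191218039 in mm10.

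Nupr1, a small chromatin-associated stress protein, gave 10.1 and 12.8 CPM in vehicle, 43.1 and 44.6 with DMSO, and 38.9 and 36.9 with BI6727. The groups did not overlap and the replicates of each were close. It rose by a log2 fold change of 1.93 (SE 0.15, adjusted p = 0.000238, edgeR), and 1.92 without DMSO replicate 2. It was the only member that stayed past the threshold in this comparison with either vehicle library left out.

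Trib3, a pseudokinase that binds ATF4 and restrains it, gave 8.93 and 12.6 CPM in vehicle, 31.0 and 43.6 with DMSO, and 23.9 and 24.2 with BI6727. Again the 3 groups did not overlap, with BI6727 between the other two. Against vehicle, the DMSO group was higher by a log2 fold change of 1.79 (SE 0.22, adjusted p = 0.00182, edgeR), and 1.53 without DMSO replicate 2. Chac1, a glutathione-degrading enzyme and ATF4 target, gave 6.59 and 9.69 CPM in vehicle, 16.1 and 27.9 with DMSO, and 18.3 and 17.3 with BI6727. Both TGFB1 groups lay above vehicle, and BI6727 lay within the range of DMSO. The log2 fold change with DMSO was 1.43 (SE 0.29, adjusted p = 0.0134, edgeR). It was therefore not called with the 10 CPM filter, and it was called when filterByExpr kept 14604 genes (log2 fold change 1.44, adjusted p = 0.00819), where 5.98% of genes were called.

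Stc2, stanniocalcin 2, a secreted glycoprotein made in stressed cells, gave 8.98 and 9.78 CPM in vehicle, 20.1 and 20.2 with DMSO, and 17.6 and 18.2 with BI6727. The groups did not overlap, and the spread within each was below 1 CPM. It rose by a log2 fold change of 1.10 (SE 0.14, adjusted p = 0.00181, edgeR), and by 1.11 without DMSO replicate 2. Sesn2, a leucine sensor that holds back mTORC1, gave 43.3 and 51.8 CPM in vehicle, 73.0 and 78.3 with DMSO, and 79.2 and 78.9 with BI6727. The increase of 0.67 (log2) with DMSO had an adjusted p of 0.00802 (edgeR) but did not reach a fold of 2.

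Cebpb, a bZIP factor that pairs with ATF4, ran the other way. It gave 205 and 185 CPM in vehicle, 86.7 and 93.3 with DMSO, and 83.6 and 72.3 with BI6727. Both TGFB1 groups lay below vehicle and did not overlap one another. The change with DMSO was -1.12 on the log2 scale (SE 0.11, adjusted p = 0.000726, edgeR). Exons of Tmem189 cover 20.7% of its exon length in the annotation, and the strand setting of the counting is not given in the sources used here, so the share of its reads that belongs to Cebpb is uncertain. Its relative Cebpg, which forms heterodimers with ATF4, gave 64.8 and 69.4 CPM in vehicle, 74.3 and 79.0 with DMSO, and 61.2 and 64.6 with BI6727. Its groups did not overlap, with DMSO highest and BI6727 lowest, and its log2 fold change with DMSO was 0.19 (adjusted p = 0.208, edgeR).

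The transcript of Atf4 itself gave 317 and 304 CPM in vehicle, 379 and 517 with DMSO, and 387 and 384 with BI6727. Both TGFB1 groups lay above vehicle, and DMSO replicate 2 was above every other library. Its log2 fold change with DMSO was 0.53 (SE 0.15, adjusted p = 0.0396, edgeR), short of the threshold, and 0.30 without DMSO replicate 2. Ddit3, which encodes the stress factor CHOP, gave 24.0 and 23.2 CPM in vehicle, 30.3 and 45.3 with DMSO, and 34.5 and 36.1 with BI6727, and the log2 fold change was 0.68 (adjusted p = 0.0419, edgeR), or 0.37 without DMSO replicate 2. Exons of other genes, Mars among them, cover 10.9% of its exon length. Atf5, which like ATF4 is under translational control, and Eif4ebp1, the translation repressor 4E-BP1, did not pass the threshold at 0.23 and 0.58.

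**Figure D3:**
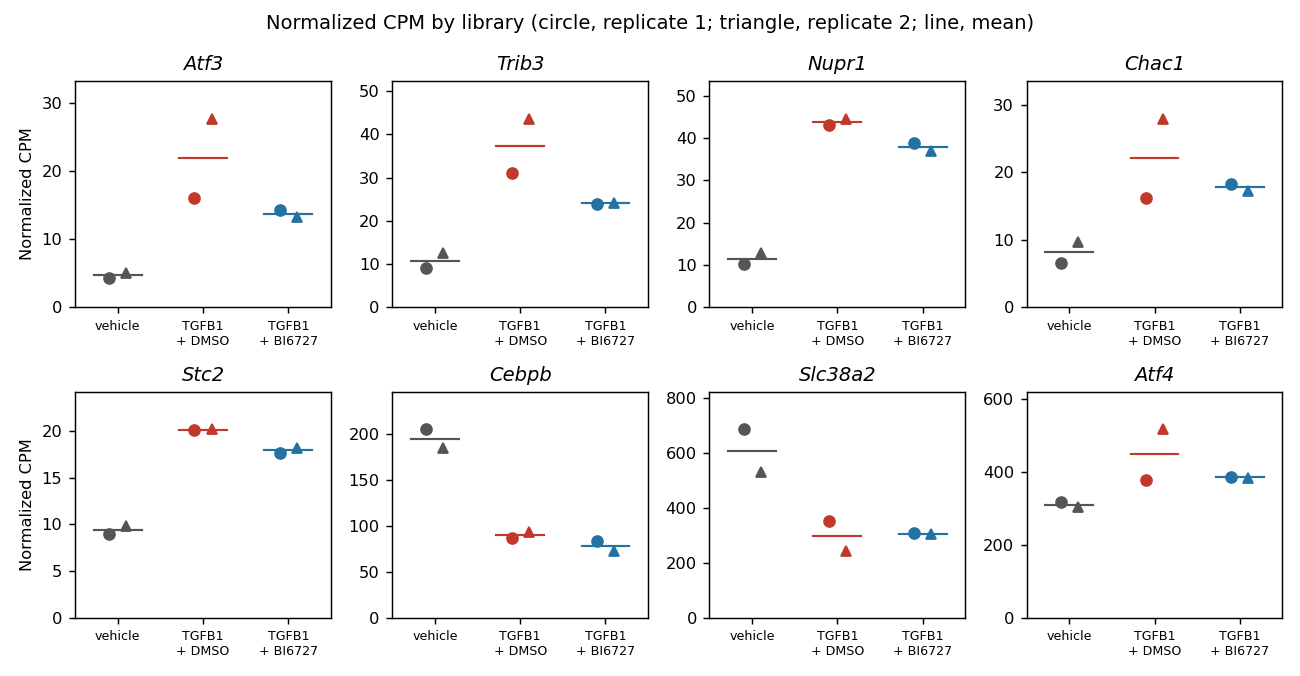
Normalized CPM (axes from 0) in each of the 6 libraries for the 7 members past the threshold with either filter and for Atf4; circles and triangles are replicates 1 and 2 and the line is the group mean. Vehicle is separate from both TGFB1 groups in every panel, lower for 6 of the 8 genes and higher for Cebpb and Slc38a2, and DMSO replicate 2 is the top library for Atf3, Trib3, Nupr1, Chac1, Stc2 and Atf4.

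The enzymes of serine, glycine and asparagine synthesis had estimates on both sides of 0 with DMSO against vehicle. None of these 6 passed the threshold, beside 5.10% of all tested genes. At an adjusted p below 0.05, 2 were higher and 1 lower, beside 11.0% and 12.0% of all tested genes. The serine branch has 3 steps. Its first enzyme, Phgdh, gave 98.7 and 115 CPM in vehicle, 120.3 and 151 with DMSO, and 126 and 110 with BI6727 (log2 fold change with DMSO 0.35, adjusted p = 0.126, edgeR). Of the 50-base windows of Phgdh, 47.8% also occur in transcripts of other genes, so its counts may lose or share reads. The second enzyme, Psat1, gave 413 and 438 CPM in vehicle, 289 and 349 with DMSO, and 303 and 295 with BI6727, for a log2 fold change of -0.41 with DMSO (adjusted p = 0.0400, edgeR). The third, Psph, gave 24.7 and 29.4 CPM in vehicle, 32.3 and 66.0 with DMSO, and 37.4 and 39 with BI6727. The log2 fold change of 0.86 with DMSO had an adjusted p of 0.0791 (edgeR) and was 0.26 without DMSO replicate 2, which was higher than every other library for this gene. Exons of Cct6a cover 10.4% of its exon length.

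Within one library, the ratio of 2 members does not depend on the scaling of that library, but it can still carry that library's trend on gene length. The pairs were chosen with earlier results of these data known, and no share over other pairs was taken, so the ratios are descriptions only. The log2 ratio of Psph to Psat1 per kilobase was -4.09 and -3.92 in vehicle, -3.19 and -2.43 with DMSO, and -3.04 and -2.95 with BI6727. Both TGFB1 groups were above vehicle. Asns, asparagine synthetase, gave 122 and 143 CPM in vehicle, 171 and 218 with DMSO, and 145 and 154 with BI6727, with the groups in separate ranges and BI6727 between the others. Its log2 fold change with DMSO was 0.55 (adjusted p = 0.0304, edgeR). The log2 ratio of Asns to Psat1 was -1.12 and -0.98 in vehicle, -0.12 and -0.05 with DMSO, and -0.43 and -0.31 with BI6727.

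Serine is turned into glycine and a one-carbon unit by SHMT2 in mitochondria and by SHMT1 in the cytosol. Shmt2 gave 235 and 243 CPM in vehicle, 289.7 and 314 with DMSO, and 267 and 263 with BI6727, in 3 separate ranges. Its log2 fold change with DMSO was 0.34 (adjusted p = 0.0367, edgeR), and that of Shmt1 was -0.10 (adjusted p = 0.536). The log2 ratio of Shmt2 to Shmt1 per kilobase was 2.58 and 2.46 in vehicle, 2.97 and 2.95 with DMSO, and 2.82 and 2.79 with BI6727.

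The folate enzymes also had estimates on both sides of 0, and none passed the threshold. At an adjusted p below 0.05, 1 was higher and 1 lower, beside 11.0% and 12.0% of all tested genes. Mthfd2, the mitochondrial dehydrogenase and cyclohydrolase, gave 56.5 and 66.0 CPM in vehicle, 89.2 and 135 with DMSO, and 86.7 and 96.0 with BI6727. Both TGFB1 groups lay above vehicle, and the log2 fold change with DMSO was 0.87 (adjusted p = 0.0185, edgeR), or 0.55 without DMSO replicate 2. Mthfd1l, which releases formate from the same organelle, gave 118 and 129 CPM in vehicle, 102 and 89.1 with DMSO, and 81.2 and 79.5 with BI6727. Each group lay below the one before it, with a log2 fold change of -0.36 with DMSO (adjusted p = 0.0476, edgeR). The log2 ratio of Mthfd2 to Mthfd1l per kilobase was -0.71 and -0.62 in vehicle, 0.15 and 0.95 with DMSO, and 0.44 and 0.62 with BI6727. The cytosolic Mthfd1 gave 141 and 139 CPM in vehicle, 129 and 112 with DMSO, and 131 and 134 with BI6727 (log2 fold change with DMSO -0.22, adjusted p = 0.152, edgeR), and Aldh1l2, a mitochondrial formyl-folate oxidizer, had -0.28 (adjusted p = 0.388).

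Of the 9 transporters, 7 were tested and 1 passed the threshold, beside 5.10% of all tested genes. Slc38a2, the sodium-coupled carrier SNAT2, gave 687 and 532 CPM in vehicle, 354 and 245 with DMSO, and 308 and 307 with BI6727. Vehicle was above every other library, and its replicates lay further apart than those of BI6727. The log2 fold change with DMSO was -1.02 (SE 0.19, adjusted p = 0.00991, edgeR), just past the threshold, and -0.77 without DMSO replicate 2, where it was not called. Slc3a2, the heavy chain shared by several exchangers, gave 156 and 158 CPM in vehicle, 209 and 233 with DMSO, and 231 and 228 with BI6727, at a log2 fold change of 0.50 (adjusted p = 0.0105, edgeR). The leucine exchanger Slc7a5, a light chain that pairs with it, gave 47.1 and 57.1 CPM in vehicle, 48.3 and 59.9 with DMSO, and 38.1 and 34.1 with BI6727, so vehicle and DMSO overlapped. The log2 ratio of Slc3a2 to Slc7a5 per kilobase was 1.80 and 1.54 in vehicle, 2.18 and 2.03 with DMSO, and 2.67 and 2.81 with BI6727, in 3 separate ranges.

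Slc7a11, the cystine carrier xCT and a well-known ATF4 target, did not pass the filter. It gave 9.71 and 15.4 CPM in vehicle, 10.0 and 11.6 with DMSO, and 7.90 and 9.69 with BI6727, so vehicle and DMSO overlapped, and in the filterByExpr fit its log2 fold change with DMSO was -0.21 (adjusted p = 0.579). The glutamine carrier Slc1a5 was the flattest member, between 70.2 and 74.9 CPM in all 6 libraries (log2 fold change 0.01, 95% interval -0.21 to 0.23). The alanine and serine carrier Slc1a4, the glycine carrier Slc6a9 and the arginine carrier Slc7a1 had log2 fold changes of 0.22, 0.32 and 0.10 with DMSO, with adjusted p from 0.139 to 0.668 (edgeR). Other genes' exons cover 30.2% of the exon length of Slc6a9. Slc7a3, a second arginine carrier, gave 1.40 and 1.46 CPM in vehicle, 1.16 and 0.43 with DMSO, and 1.84 and 1.28 with BI6727.

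Among the remaining enzymes, Got1, the cytosolic aspartate aminotransferase, gave 57.9 and 58.3 CPM in vehicle, 72.4 and 73.9 with DMSO, and 72.1 and 76.0 with BI6727. Both TGFB1 groups were above vehicle, with a log2 fold change of 0.33 with DMSO (adjusted p = 0.0455, edgeR). Pck2, the mitochondrial PEP carboxykinase, gave 63.3 and 67.5 CPM in vehicle, 42.3 and 60.9 with DMSO, and 34.3 and 38.8 with BI6727. Each group lay below the one before it, and its log2 fold change with DMSO was -0.34 (adjusted p = 0.201, edgeR). The proline enzyme Aldh18a1 and the alanine aminotransferase Gpt2 had 0.17 and 0.23, neither past the threshold. Pycr1, the last step of proline synthesis, gave 6.80 and 6.14 CPM in vehicle, 6.76 and 4.86 with DMSO, and 5.95 and 4.43 with BI6727, so the groups overlapped. Of the transsulfuration enzymes, Cth gave 1.92 and 2.14 CPM in vehicle, 2.56 and 3.32 with DMSO, and 0.78 and 1.49 with BI6727, in 3 separate ranges. Cbs was at the edge of detection, with 0 and 2 counts in vehicle, 7 and 10 with DMSO, and 6 and 11 with BI6727, and failed filterByExpr as well. Vldlr, the lipoprotein receptor, gave 2.13 and 3.78 CPM in vehicle, 2.03 and 1.40 with DMSO, and 0.61 and 1.57 with BI6727.

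**Figure D4:**
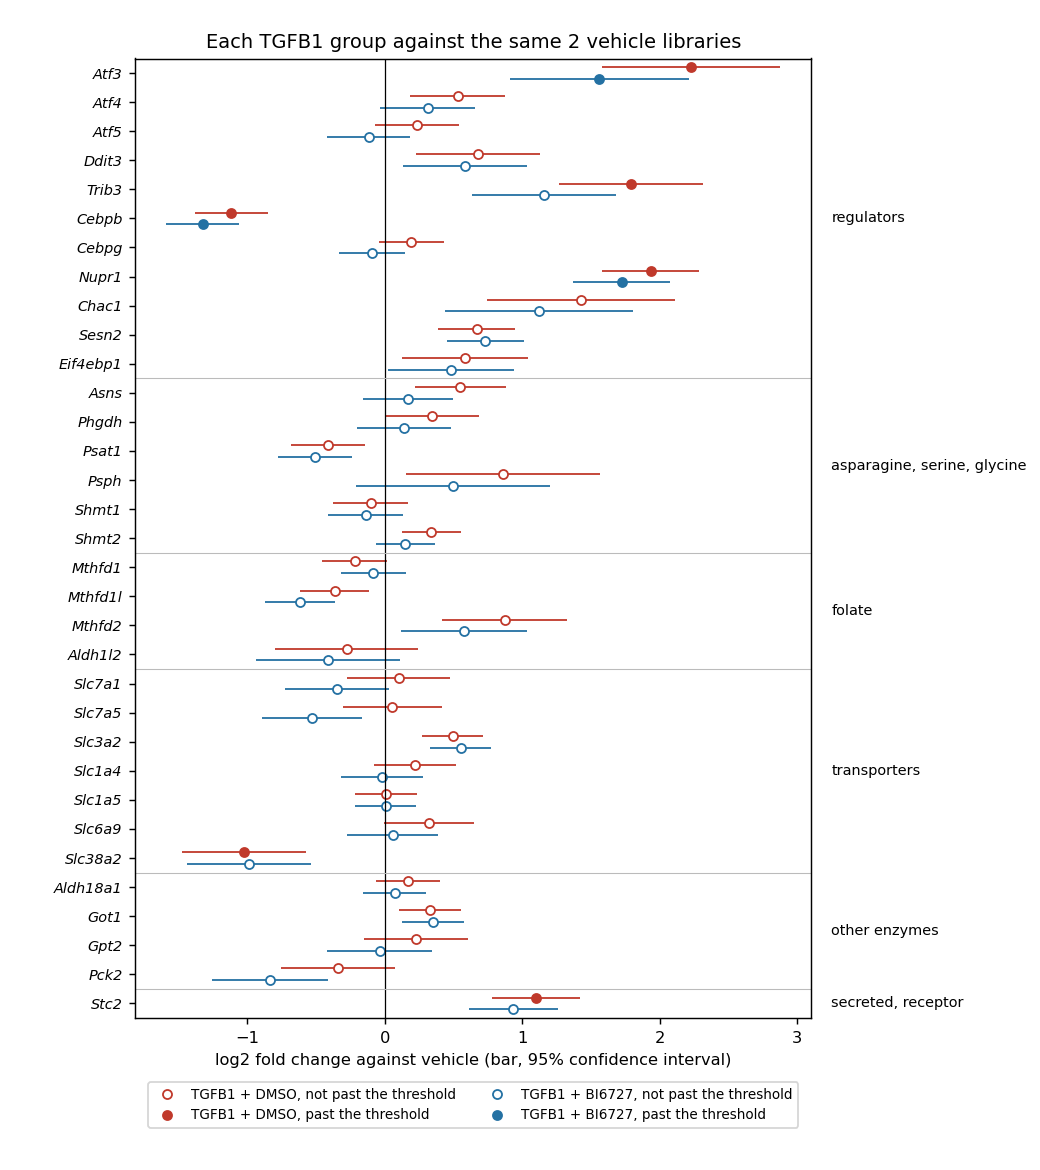
Log2 fold change of the 33 tested members in the DMSO group (red) and the BI6727 group (blue) against the same 2 vehicle libraries, grouped by role; bars are 95% confidence intervals and filled points passed the threshold. With DMSO, Atf3, Nupr1, Trib3 and Chac1 lie highest, Chac1 not past the threshold, and Cebpb and Slc38a2 lie lowest. The red and blue estimates share their vehicle libraries, so their likeness is in part built in.

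The second comparison, of BI6727 with DMSO under TGFB1, asks what 5 µM BI6727 added. It shares the DMSO libraries with the first, with the opposite sign. A DMSO library that stands high for a gene thus raises the first estimate and lowers this one. In these libraries PLK1 inhibition cannot be told apart from other effects of the compound. No member was called, and none of the 9518 genes was (0%, edgeR). At an unadjusted p below 0.05, 9 of the 33 members were lower and none higher, against 4.52% and 2.16% of all tested genes. These were Atf3, Atf5, Trib3, Cebpg, Asns, Mthfd1l, Slc7a1, Slc7a5 and Pck2. DESeq2 called 11 genes (0.116%), none of them a member. The smallest adjusted p among the members was 0.583 (edgeR). The median log2 fold change of the tested members was -0.21, with 28 of 33 below 0, and that of all tested genes was -0.0028. The BI6727 libraries lay wholly below the DMSO libraries for 17 members and wholly above them for 2, against 17.1% and 17.0% of all tested genes.

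The smallest p was that of Slc7a5, whose BI6727 libraries at 38.1 and 34.1 CPM were below the DMSO libraries at 48.3 and 59.9. Its log2 fold change was -0.58 (95% interval -0.95 to -0.22, adjusted p = 0.583, edgeR). Atf3 had -0.67 (95% interval -1.26 to -0.08, adjusted p = 0.711) and Trib3 -0.63 (95% interval -1.13 to -0.13, adjusted p = 0.677). The charged amino acid carrier Slc7a1 gave 30.5 and 35.6 CPM in vehicle, 38.4 and 32.6 with DMSO, and 23.4 and 28.6 with BI6727, lowest in the last group, at a log2 fold change of -0.45 (adjusted p = 0.698). Only the intervals of Atf3, Trib3 and Psph (-1.06 to 0.33) reached past a 2-fold fall. Those of all other tested members ended short of a 2-fold fall, Nupr1 (-0.54 to 0.12) and Stc2 (-0.48 to 0.14) among them, and Chac1 (-0.96 to 0.34) only just. For each gene the fit takes 1 spread for all 3 groups, and replicates differed most in the DMSO group. The intervals may thus be too narrow here, and a 2-fold fall is not excluded. Sesn2, Slc3a2 and Got1 had 0.06, 0.06 and 0.02.

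These values depended on DMSO replicate 2. Without that library, 21 of 33 members were below 0, with a median of -0.16, and the estimates of Atf4, Ddit3, Chac1, Eif4ebp1, Psat1, Psph, Shmt1, Mthfd2 and Slc38a2 changed sign. Atf3 was then at -0.24 and Trib3 at -0.38, whereas Slc7a5 was at -0.44 and Slc7a1 at -0.57. Without DMSO replicate 1 the median was -0.27, with 28 of 33 below 0, and Atf3 at -1.01 was the only member called. When each library's trend on gene length was removed, 29 of 33 were below 0, with a median of -0.18 and a smallest adjusted p of 0.181.

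**Figure D5:**
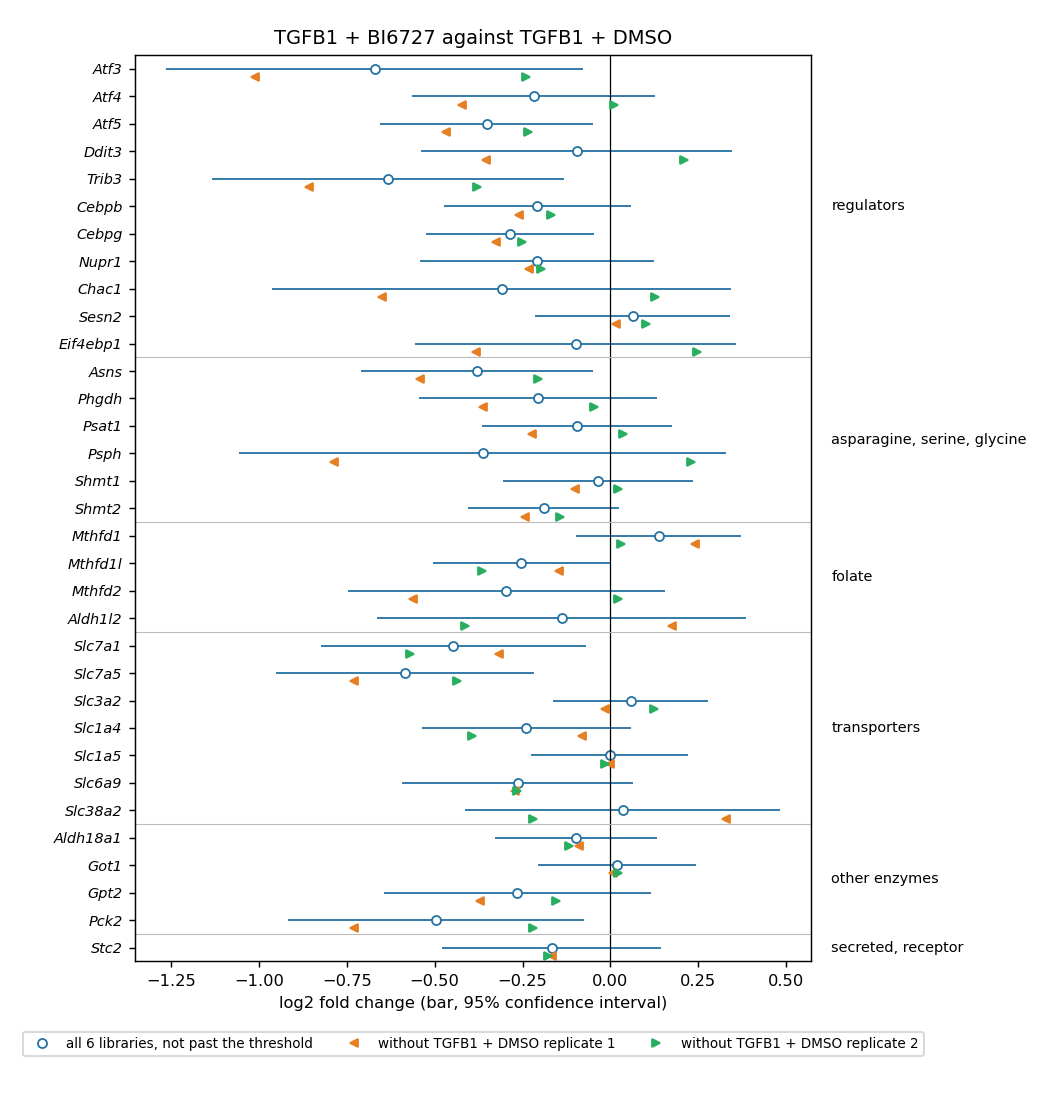
Log2 fold change of the 33 tested members with BI6727 against DMSO (open circles, bars 95% confidence intervals), and the same without DMSO replicate 1 (left-pointing) or replicate 2 (right-pointing triangles). Without replicate 2 the estimates for Psph, Eif4ebp1 and Ddit3 lie above 0, at 0.23, 0.25 and 0.21, and those for Slc7a5, Slc7a1 and Trib3 stay below it.

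The third comparison, of BI6727 with vehicle, asks what remained changed under the inhibitor, and shares the vehicle libraries with the first. In it 2 members were called higher and 1 lower, while 5.31% of all tested genes were called (2.34% higher and 2.96% lower). Atf3 had a log2 fold change of 1.56 (SE 0.28, adjusted p = 0.00740, edgeR) and Nupr1 of 1.72 (SE 0.15, adjusted p = 0.000352). Cebpb had -1.32 (SE 0.11, adjusted p = 0.000338). Trib3, at 1.16, missed the threshold with an adjusted p of 0.0102 and passed it under filterByExpr, and Chac1 had 1.12 (adjusted p = 0.0309). Slc38a2 had -0.99 (adjusted p = 0.0105) and Stc2 0.93 (adjusted p = 0.00337), both short of 2-fold.

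Of the members that stayed short of 2-fold, Sesn2 had 0.73 (adjusted p = 0.00508), Slc3a2 had 0.55 (adjusted p = 0.00634) and Mthfd1l had -0.62 (adjusted p = 0.00678, edgeR). Pck2 had -0.84 (adjusted p = 0.0148), Slc7a5 -0.53 (adjusted p = 0.0458) and Psat1 -0.51 (adjusted p = 0.0186). Atf4 had 0.31 (adjusted p = 0.166), Asns 0.17 (adjusted p = 0.420) and Shmt2 0.15 (adjusted p = 0.282). The median of the tested members was 0.07, with 19 of 33 above 0, beside 0.0029 for all tested genes.

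Across all 3 groups, the libraries fell into separate ranges with BI6727 between vehicle and DMSO for 7 of the 33 tested members (8.73% of all tested genes). Atf3, Trib3, Nupr1, Asns, Shmt2 and Stc2 were lowest in vehicle, and Mthfd1 was highest there. For 6 members, Cebpb, Cebpg, Mthfd1l, Slc7a1, Slc7a5 and Pck2, both BI6727 libraries were below all others (9.71% of all tested genes). Sesn2 was the 1 member with both BI6727 libraries above all others (9.13% of all tested genes). These ranges rest on 2 libraries a group, and no p-value was attached to them.

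Other genes of the pathway were read from 8 further lists, whose counts stand beside 2.56% of all tested genes called higher and 2.53% called lower, and 11.0% higher at an adjusted p below 0.05. Of 9 tested stress-response genes linked to ATF4, 3 were called higher with DMSO against vehicle and none lower, with a median log2 fold change of 0.58. They were Ppp1r15a, the eIF2α phosphatase subunit GADD34 (1.53, adjusted p = 0.000414), Gadd45a, a growth arrest gene (1.35, adjusted p = 0.000598), and Ddit4, an mTORC1 inhibitor (1.05, adjusted p = 0.000577, edgeR), which was named after its value was seen. Ppp1r15a was also the 1 of 12 tested genes of eIF2α kinases, phosphatase subunits and eIF2B that was called. Of 20 cytosolic aminoacyl-tRNA synthetases, 1 was called higher, Gars for glycine (1.01, adjusted p = 0.00124), and 6 were higher and none lower at an adjusted p below 0.05. Of 11 other amino acid transporters, 1 was called, the arginine and neutral amino acid carrier Slc38a4, which was lower (-1.47, adjusted p = 0.00376). None was called among 15 tested genes of the ATF6 and XBP1 arms of the unfolded protein response, 16 other folate and one-carbon enzymes, 11 enzymes of glutamine, glutamate, proline and polyamines, and 10 NRF2 targets and glutathione enzymes, where lists of this size would hold at most 1 called gene at the share of all genes.

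With BI6727 against vehicle, Ppp1r15a (1.01, adjusted p = 0.00227), Gadd45a (1.39, adjusted p = 0.000482) and Hmox1, the heme oxygenase among the NRF2 targets (1.18, adjusted p = 0.000732), were called higher. Slc38a4 (-1.45, adjusted p = 0.00364) and Eif2ak4, the amino acid sensing kinase GCN2 (-1.02, adjusted p = 0.00380), were called lower (edgeR). None of the genes on these lists was called between BI6727 and DMSO. With BI6727 against vehicle, 2 of the 7 fibroblast markers were called lower, beside 2.96% of all tested genes. These were Thy1 (-1.003, adjusted p = 0.000675) and Pdgfrb (-1.20, adjusted p = 0.00930, edgeR). In that comparison 3 of the 7 had estimates above 0, from 0.0085 to 0.69. With DMSO against vehicle none of the 7 was called. Thy1 had -0.91 (adjusted p = 0.00115), S100a4 -1.01 (adjusted p = 0.0455), Pdgfrb -0.73 (adjusted p = 0.0540) and Col1a2 -0.67 (adjusted p = 0.0700), while Col1a1 had 0.67, Fn1 0.45 and Vim 0.28, with adjusted p from 0.115 to 0.374 (edgeR). The part of a changed cell state in the values of the members was not tested.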

How the data were processed

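The authors mapped single-end reads of rRNA-depleted RNA to mm10 with Subjunc, counted them with featureCounts (Subread 1.6.4) on Gencode genes, and deposited raw counts for each library. The strand setting is not given in the sources used here. Libraries were grouped by their labels. The study's methods call the replicates biological but give more than one number of them, and do not say that they were separate cultures. The labels give 2 per group, and p-values measure the spread between these libraries, which may be technical.

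The counts were tested here by the quasi-likelihood test of edgeR 4.0.16 under R 4.3.3, in 1 fit of 6 TMM-scaled libraries with 3 residual degrees of freedom, on genes reaching 10 CPM in more than 3 libraries, at a Benjamini-Hochberg adjusted p below 0.01 and a fold above 2. The SE is the log2 fold change divided by the root of F. Exact permutation of 2 against 2 libraries cannot go below p = 0.333, so none was run. DESeq2 1.42.0, limma 3.58.1 (voom), other filters and thresholds, a replicate block, length offsets and each library left out were alternatives, and the crossed block and filterByExpr with length offsets were added after seeing the data. The edgeR test was checked on counts simulated with the same spread in all libraries and no trend on gene length. Such counts lack the departure of DMSO replicate 2 seen here.

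Members, lists and tests were chosen with earlier results of these data known. The genes named with full statistics are Atf4 and members past the threshold in the main or the filterByExpr fit. Members under the 10 CPM filter or with 3 separate group ranges have their values per library, and other lists give counts and at most the 2 largest changes each way, apart from Ddit4, Krt14 and the fibroblast markers. Positions are those of the count table. Ddit3 has 2 identifiers, and the one with counts was used. Same-numbered replicates were not treated as pairs.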

Additional observations from a re-analysis of the deposited data

How the results depend on the processing

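With DMSO against vehicle, the 4 members called higher became 13 at an adjusted p below 0.05 with no minimum fold, and 1 to 7 with a library left out. Of all tested genes, 2.56% were called higher with all 6 libraries and 11.0% at the looser threshold. Without vehicle replicate 1 or 2 only Nupr1 was called higher, beside 0.830% and 0.956% of all genes. Without DMSO replicate 1, Chac1, Psph and Mthfd2 were added, beside 3.20%. The 2 called lower became 4 at an adjusted p below 0.05 with no minimum fold, 1 under DESeq2 size factors, only the 2 groups compared, a crossed replicate block, length offsets, and filterByExpr with length offsets, and 0 to 2 with a library left out, beside 0.504% to 5.12% of all genes. Cebpb was called in each of these but the 2 without a vehicle library. With BI6727 against DMSO, 0 members were called lower, and 0 to 1 with a library left out, beside 0% to 0.179% of all genes. With BI6727 against vehicle, the 2 called higher became 4 with DESeq2, only the 2 groups compared, length offsets, filterByExpr with length offsets, and voom, 5 and 8 at an adjusted p below 0.01 and 0.05 with no minimum fold, and 1 to 4 with a library left out, beside 4.94% and 11.3% of all genes at these thresholds and 0.851% to 2.49% with a library left out. The 1 called lower became 2 and 6 at these 2 thresholds, beside 5.99% and 13.2%, and 0 to 1 with a library left out, beside 0.862% to 3.15%. In these fits a lone library was assumed to vary like the other groups. With BI6727 against vehicle, DESeq2, voom, only the 2 groups compared and both length-offset fits called 2.49% to 3.02% of all genes higher.

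The deviations of same-numbered replicates correlated across genes at r = -0.11 (vehicle and DMSO), -0.26 (DMSO and BI6727) and 0.047 (vehicle and BI6727). Each r rests on 2 libraries a group, and DMSO replicate 2 stood apart. These values therefore cannot decide whether the labels' numbers pair the samples. With the replicate block, 4 members were higher and 2 lower with DMSO against vehicle, beside 2.35% and 2.41% of all tested genes. Between BI6727 and DMSO 0 members were called, beside 0% of all genes. With BI6727 against vehicle 3 were higher and 1 lower, beside 2.21% and 2.82%.

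Signs turned for 36 estimates of single members in all, and the causes were not tested. With DMSO against vehicle and a library left out, log2 fold changes ranged over -0.031 to 0.23 for Slc7a1, -0.098 to 0.20 for Slc7a5 and -0.037 to 0.050 for Slc1a5. With BI6727 against DMSO they ranged over -0.42 to 0.0090 for Atf4, -0.35 to 0.21 for Ddit3, -0.65 to 0.13 for Chac1, -0.38 to 0.25 for Eif4ebp1, -0.22 to 0.036 for Psat1, -0.79 to 0.23 for Psph, -0.0997 to 0.022 for Shmt1, -0.56 to 0.023 for Mthfd2, -0.41 to 0.17 for Aldh1l2, -0.016 to 0.13 for Slc3a2, -0.015 to 0.0065 for Slc1a5, -0.22 to 0.33 for Slc38a2 and -0.018 to 0.055 for Got1. With BI6727 against vehicle they ranged over -0.25 to 0.025 for Atf5, -0.061 to 0.013 for Slc1a4, -0.039 to 0.051 for Slc1a5, -0.040 to 0.16 for Slc6a9, -0.011 to 0.15 for Aldh18a1 and -0.18 to 0.11 for Gpt2. Between BI6727 and DMSO, Slc1a5 was 0.0069 under filterByExpr, 0.0039 with at least 10 counts in total, 0.0012 with only the 2 groups compared and 0.0047 under filterByExpr with length offsets, and Slc38a2 was -0.024 with length offsets and -0.017 when filterByExpr was added. With BI6727 against vehicle, filterByExpr with length offsets gave 0.012 for Slc1a4 and 0.025 for Gpt2.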
